A study of Mus musculus with 6 samples.

Results

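The 10 genes described here encode phosphodiesterases that break down cyclic AMP (cAMP): *Pde2a*, *Pde3a*, *Pde3b*, *Pde4a*, *Pde4b*, *Pde4c*, *Pde4d*, *Pde7a*, *Pde8a* and *Pde10a*. They were taken by symbol from the 27179 genes listed in the count tables of 6 quadriceps libraries, and all 10 passed the filter on low counts that left 16483 genes for testing. RNA-seq compared 3 miDrp1KO mice (replicates A, E and F) with 3 control mice (replicates B, C and D), all kept on normal chow. The miDrp1KO mice carried floxed alleles of *Dnm1l*, the gene for the mitochondrial fission protein Drp1, together with HSA-MerCreMer, a Cre recombinase that tamoxifen switches on and that the human skeletal actin promoter restricts to muscle fibres. The controls are labelled as floxed on both alleles (f/f) and are described in the study's methods by floxed alleles alone, with no Cre named. The floxed line had been backcrossed to C57BL/6J. Mice of both genotypes received tamoxifen at 3 months of age (50 mg/kg on each of 4 days), and muscle was taken 3 weeks after deletion. Cells other than fibres in the whole muscle keep *Dnm1l*, and in such bulk RNA fewer cells of a type and less RNA per cell cannot be told apart.

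cAMP is made by adenylyl cyclases at the membrane, activates protein kinase A (PKA) and other binding proteins, and is removed by phosphodiesterases, which set how long and how far the signal spreads. In skeletal muscle this pathway lies downstream of β-adrenergic receptors. The PDE4, PDE7 and PDE8 enzymes are specific for cAMP, PDE3 hydrolyses cAMP and is inhibited by cyclic GMP (cGMP), PDE2 is stimulated by cGMP, and PDE10A accepts both nucleotides. The study examined PKA and Erk1/2 signaling in this muscle, and the question here is how much transcript of each cAMP-degrading enzyme the muscle held and whether it differed between the genotypes.

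Libraries held 13989588 to 62042255 counts, and the miDrp1KO totals lay within the control range. *Dnm1l* itself was at 114 to 156 CPM (counts relative to the TMM-scaled size of each library) in control and at 66.2 to 81.3 CPM in miDrp1KO libraries, so the groups followed their labels. The fibre markers (*Acta1*, *Ckm*, *Ttn* and 7 others) summed to 239213 to 292459 CPM in control and 106641 to 221429.5 CPM in miDrp1KO libraries, without overlap, with replicate A the highest of the miDrp1KO group. Slow fibre markers summed to 441, 52.8 and 85.2 CPM in controls B, C and D and to 81.2, 723 and 644 CPM in miDrp1KO A, E and F, so control B stood with E and F. Ribosomal RNA took 15.6, 7.95 and 3.36% of the counts in controls B, C and D and 23, 1.47 and 24.4% in miDrp1KO A, E and F.

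Transcript levels were compared between the enzymes per kilobase of exon, since longer transcripts collect more reads. *Pde7a* and *Pde4d* were the most abundant, with 23.3 ± 6.56 and 22.7 ± 4.48 CPM per kb in control muscle (SD, n = 3), and their control ranges overlapped. *Pde4b* followed at 8.54 ± 2.89 and *Pde8a* at 5.35 ± 1.74 CPM per kb, with overlapping ranges. Next came *Pde2a* at 3.16 ± 0.532, *Pde4a* at 2.65 ± 1.06 and *Pde3b* at 2.09 ± 0.442 CPM per kb, each overlapping its neighbour. The lowest were *Pde10a* at 0.502 ± 0.160, *Pde4c* at 0.355 ± 0.0534 and *Pde3a* at 0.328 ± 0.0233 CPM per kb. Per kb of exon, gaps without overlap of the control libraries separated *Pde4d* from *Pde4b*, *Pde8a* from *Pde2a* and *Pde3b* from *Pde10a*. The miDrp1KO muscles gave the same order of means except that *Pde3a*, at 0.346 CPM per kb, stood above *Pde4c*, at 0.253. The order of the leading pair and some of these overlaps and gaps depend on the length used. With the longest coding transcript in place of all exons (4.21 kb against 12.01 kb for *Pde4d*), *Pde4d* was first and *Pde7a* second in both groups. The control ranges of *Pde4d* and *Pde7a* then no longer overlapped. Those of *Pde7a* and *Pde4b* did overlap, as did those of *Pde8a* and *Pde2a*.

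**Figure D1:**
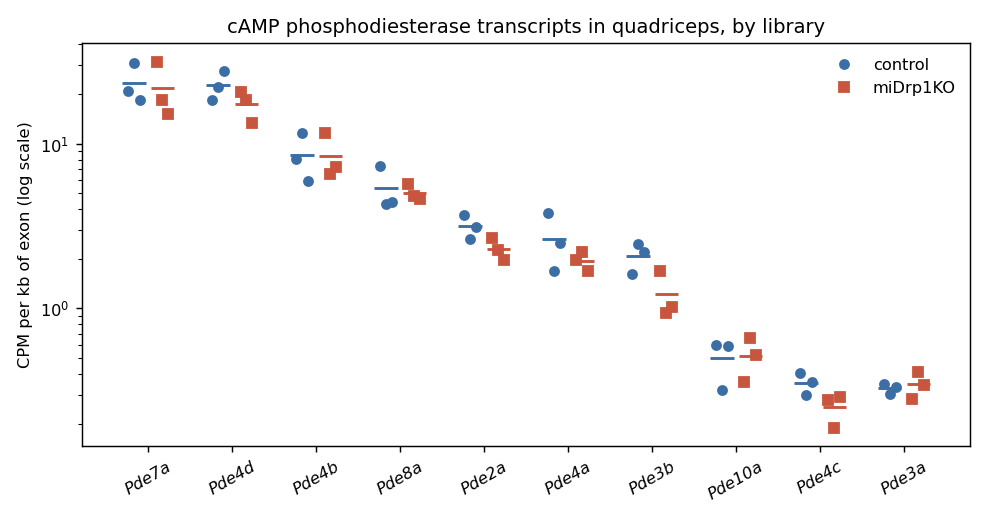
Level of each cAMP phosphodiesterase in CPM per kb of exon (log axis), with 1 point per library, circles for the 3 control and squares for the 3 miDrp1KO libraries, and a bar at each group mean. Control means run from 0.328 for *Pde3a* to 23.3 for *Pde7a*, and only for *Pde4c* do the groups not overlap.

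PDE4 genes are textbook targets of the cAMP-responsive factor CREB, which is part of how cells raise cAMP breakdown after cAMP rises, so the promoter windows of the members were searched for CREB motifs. Windows of 300 bases around RefSeq transcription starts (GRCm38.p6, from 250 before to 50 after each start) were available for 7 members, 17 windows in all. There was none for *Pde3a*, *Pde3b* and *Pde7a*, which were not searched. *Pde4d*, with 20 annotated transcripts over 1503.5 kb, was searched only at chr13:108653927-108654226, so any starts outside that window were not covered. The full cAMP response element, TGACGTCA, was in 0 of the 17 windows and in 1.79% of all 32851 windows. Its core, TGACG, read on either strand (CGTCA on the other) and also contained in the full element, was in 4 of the 17, against 20.8% of all windows. The 4 windows with the core are printed 5′ to 3′ with the core in capitals. These are the places among the 17 windows where a CREB-type motif could be read. It begins at position −50 from the start in *Pde4a*, −34 in *Pde4b*, −84 in *Pde8a* and 14 in *Pde2a*.
*Pde4a*, chr9:21183851-21184150, plus strand: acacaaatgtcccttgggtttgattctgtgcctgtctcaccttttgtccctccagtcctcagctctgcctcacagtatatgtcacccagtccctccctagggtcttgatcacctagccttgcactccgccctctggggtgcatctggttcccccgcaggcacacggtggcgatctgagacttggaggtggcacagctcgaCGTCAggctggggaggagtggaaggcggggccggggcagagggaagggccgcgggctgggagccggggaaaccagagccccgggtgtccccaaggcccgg
*Pde4b*, chr4:102421305-102421604, plus strand: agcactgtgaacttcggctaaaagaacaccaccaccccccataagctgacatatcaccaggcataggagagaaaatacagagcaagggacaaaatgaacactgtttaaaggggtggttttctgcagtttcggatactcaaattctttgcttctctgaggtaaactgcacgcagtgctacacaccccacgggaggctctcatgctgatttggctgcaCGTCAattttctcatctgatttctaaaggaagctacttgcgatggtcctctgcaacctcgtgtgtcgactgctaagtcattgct
*Pde8a*, chr7:81213015-81213314, plus strand: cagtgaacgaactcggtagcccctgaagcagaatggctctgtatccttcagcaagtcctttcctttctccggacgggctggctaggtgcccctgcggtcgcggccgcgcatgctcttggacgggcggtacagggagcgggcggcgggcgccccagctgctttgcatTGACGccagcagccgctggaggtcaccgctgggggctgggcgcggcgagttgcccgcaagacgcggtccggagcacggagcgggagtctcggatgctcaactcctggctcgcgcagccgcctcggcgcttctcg
*Pde2a*, chr7:101450270-101450569, plus strand: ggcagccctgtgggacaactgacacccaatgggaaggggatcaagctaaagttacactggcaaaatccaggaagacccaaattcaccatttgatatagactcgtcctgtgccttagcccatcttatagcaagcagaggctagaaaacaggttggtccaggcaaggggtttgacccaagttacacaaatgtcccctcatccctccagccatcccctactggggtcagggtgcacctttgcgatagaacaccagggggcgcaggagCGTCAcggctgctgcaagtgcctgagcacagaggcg

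The genes of these 4 windows differed in how they varied. *Pde4b* was highest in control C and miDrp1KO A, *Pde4a* and *Pde8a* in control B, and *Pde2a* in controls B and D. A match of these letters is a description of the window and not evidence of a site in use.

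*Pde4d* (Entrez 238871, chr13:108449948-109953461 of GRCm38, plus strand) encodes an enzyme known to be anchored near the ryanodine receptor and β-adrenergic receptors. It was at 223, 264 and 329 CPM in controls B, C and D and at 247, 222 and 159.5 CPM in miDrp1KO A, E and F. The value of F lay well below every control, that of E level with control B, and that of A within the control range. The log2 fold change (miDrp1KO over control) was −0.38 (95% interval −0.87 to 0.12, edgeR adjusted p = 0.567), an interval that runs from 0.546 to 1.08 times the control level. It came to −0.20 without control D and to −0.20 without miDrp1KO F. *Pde4b* (Entrez 18578, chr4:102087543-102607259, plus strand), a form prominent in immune cells, was at 85.3, 123 and 62.4 CPM in controls and 123, 69.4 and 75.8 CPM in miDrp1KO muscle. Its highest library in each group was the same height, and the log2 fold change was −0.01 (95% interval −0.66 to 0.63, adjusted p = 0.992 from edgeR). Leukocyte and macrophage markers summed to 81.5, 156 and 92.1 CPM in controls B, C and D and to 147, 145 and 146 CPM in miDrp1KO A, E and F. In C and A both were high and in B and D these markers were low, whereas in E and F the markers were high and *Pde4b* was below its mean; their part in its value was not tested.

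*Pde4a* (Entrez 18577, chr9:21165714-21213248, plus strand) was at 28.9, 12.9 and 19.0 CPM in controls B, C and D and at 15.1, 16.8 and 12.9 CPM in miDrp1KO A, E and F. Control B alone lay well above the rest, and the miDrp1KO values were the more even, with a coefficient of variation of 13.4% against 39.9%. The log2 fold change of −0.44 (95% interval −1.03 to 0.14, adjusted p = 0.568 from edgeR) came to −0.08 without control B (unadjusted p = 0.718 from edgeR) and to −0.70 without control C (unadjusted p = 0.00825). *Pde4c* (Entrez 110385, chr8:70723720-70751186, plus strand) rested on 23 to 120 counts per library. It was at 2.27, 1.68 and 2.00 CPM in controls and 1.56, 1.05 and 1.63 CPM in miDrp1KO muscle. It was the 1 member of 10 whose groups did not overlap, where 18.0% of all tested genes did not overlap. The log2 fold change was −0.51 (95% interval −1.22 to 0.20, adjusted p = 0.582 from edgeR), it came to −0.32 without miDrp1KO E, and a two-sided exact permutation test gave p = 0.1, the smallest that 3 against 3 allow.

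*Pde7a* (Entrez 18583, chr3:19223108-19311322, minus strand) encodes a high-affinity cAMP-specific enzyme known from T cells and skeletal muscle. It was at 162, 238 and 141 CPM in controls B, C and D and at 243, 143 and 118 CPM in miDrp1KO A, E and F. Control C and miDrp1KO A were the high libraries, 1 in each group, and miDrp1KO F was the lowest. On the log2 scale the difference was −0.10 (95% interval −0.76 to 0.55, adjusted p = 0.929 from edgeR). Its sign was not stable: it was 0.13 without control C and −0.44 without miDrp1KO A. *Pde8a* (Entrez 18584, chr7:81213596-81334533, plus strand), another high-affinity cAMP-specific enzyme, was at 29.7, 17.3 and 17.8 CPM in controls and 23.1, 19.5 and 18.7 CPM in miDrp1KO muscle. All 3 miDrp1KO values lay inside the control range, which control B widened. The log2 fold change was −0.08 (95% interval −0.56 to 0.39, adjusted p = 0.918 from edgeR) and 0.23 without control B.

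*Pde3b* (Entrez 18576, chr7:114415281-114539251, plus strand) encodes the phosphodiesterase through which insulin restrains lipolysis in fat cells. It was at 14.6, 22.5 and 20 CPM in controls B, C and D and at 15.4, 8.58 and 9.31 CPM in miDrp1KO A, E and F. E and F lay far below every control, whereas A lay just above control B. Its means were 19.0 ± 4.03 in control and 11.1 ± 3.72 CPM in miDrp1KO muscle (SD, n = 3). Its log2 fold change, the largest in size among the 10 members, was −0.78 (standard error 0.25, 95% interval −1.33 to −0.23), a value that 1.38% of tested genes reached or went below. The quasi-likelihood test of edgeR gave an unadjusted p of 0.00956 and an adjusted p of 0.382, so it did not pass the threshold of 0.05. Without miDrp1KO A the log2 fold change was −1.07 (adjusted p = 0.0722 from edgeR), the lowest adjusted p of any member in any setting, against up to 0.877 in the others.

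Markers of fat, where *Pde3b* is abundant, are given beside it. The 6 adipocyte markers, *Adipoq*, *Plin1*, *Cidec*, *Lep*, *Cfd* and *Retn*, summed to 186, 395 and 285 CPM in controls B, C and D and to 151, 70.4 and 181 CPM in miDrp1KO A, E and F, with the lowest control just above the highest miDrp1KO library. All 6 had a negative log2 fold change, 3 of them at an unadjusted p under 0.05, and edgeR called 0. With the log2 of this sum as a covariate in edgeR, the log2 fold change of *Pde3b* was −0.29 (unadjusted p = 0.400), but the marker sums of the groups did not overlap, so fat markers and genotype cannot be told apart in 6 libraries. With the slow fibre marker sum as a covariate it was −0.48 (unadjusted p = 0.0167 from edgeR). The sum of the skeletal muscle fibre markers also did not overlap between the groups. Like *Pde3b*, that sum was lowest in E and F, and its part in the value of *Pde3b* was not tested. The 3 tested genes whose log2 CPM, centred on the mean, lay closest to that of *Pde3b* over the 6 libraries were *Ampd1*, *Gpd1* and *Mamstr*, with root mean square differences of 0.0723, 0.0980 and 0.0991, where *Pde3b* itself varied by 0.51 around its mean. *Ampd1*, the muscle AMP deaminase, was at 875, 1145 and 1144 CPM in controls B, C and D and at 830.2, 479 and 529.9 CPM in miDrp1KO A, E and F, the same order of libraries except for B and A. From 6 libraries and 6858 candidate genes, these matches are given only as a description.

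*Pde2a* (Entrez 207728, chr7:101421691-101512827, plus strand), an enzyme abundant in endothelium, was at 23.5, 16.8 and 19.7 CPM in controls B, C and D and at 16.8, 14.4 and 12.5 CPM in miDrp1KO A, E and F. E and F lay below every control, and A was level with control C. For *Pde2a* the log2 fold change was −0.46 (standard error 0.18, 95% interval −0.86 to −0.06), with an unadjusted p of 0.0289 and an adjusted p of 0.416 from edgeR. It came to −0.31 (adjusted p = 0.653 from edgeR) without control B. The 7 endothelial markers summed to 303, 170.2 and 237 CPM in controls and to 168, 267 and 197 CPM in miDrp1KO muscle, with 6 of 7 negative and a median log2 fold change of −0.11; their part in the value of *Pde2a* was not tested. An annotated gene on the same strand, *Gm45837*, shares up to 1364 exon bases with *Pde2a*, and how such reads were counted is not given in the sources used here.

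*Pde3a* (Entrez 54611, chr6:141249269-141507448, plus strand), the form of heart, platelets and vascular smooth muscle, was at 4.45, 3.86 and 4.23 CPM in controls and 3.60, 5.27 and 4.37 CPM in miDrp1KO muscle. The miDrp1KO libraries spanned the control range on both sides, and the log2 fold change was 0.08 (95% interval −0.41 to 0.58, adjusted p = 0.925 from edgeR). Smooth muscle markers summed to 124, 72.4 and 107 CPM in controls and 78.3, 102 and 79.5 CPM in miDrp1KO muscle. *Pde10a* (Entrez 23984, chr17:8525372-8986648, plus strand), best known from the striatum, was at 7.72, 4.08 and 7.56 CPM in controls and 4.57, 8.55 and 6.72 CPM in miDrp1KO muscle. Control C and miDrp1KO A were the low libraries, the reverse of *Pde7a*. The log2 fold change was 0.03 (95% interval −0.61 to 0.67, adjusted p = 0.984 from edgeR), and the 4 neuronal markers searched, *Rbfox3*, *Snap25*, *Syt1* and *Drd2*, were each under 1 CPM in every library. On the opposite strand, *Gm28523* overlaps exons of *Pde3a* and *Gm16093* overlaps 48 exon bases of *Pde7a*; the strand setting of the counting is not given in the sources used here.

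Of the 10 members, 0 were called by edgeR at an adjusted p under 0.05, where 2 of 16483 genes (0.0121%) were. At an unadjusted p under 0.05 there were 2, *Pde3b* and *Pde2a*, both lower in miDrp1KO muscle, beside 10.9% of all tested genes. Limma voom and DESeq2 also called 0 members and had 2 each at an unadjusted p under 0.05. DESeq2 gave an adjusted p to only 3 members, *Pde4b*, *Pde4d* and *Pde7a*, after its independent filtering, and called 2.34% of the genes that had one. The log2 fold change was negative in 8 members and positive in 2, with a median of −0.24 against 0.02 over all tested genes. For *Pde4b*, *Pde7a*, *Pde8a*, *Pde3a* and *Pde10a* the sign changed in at least 1 setting, among them upper quartile scaling for *Pde4b*, whereas *Pde3b*, *Pde2a*, *Pde4a*, *Pde4c* and *Pde4d* stayed negative in all 16 alternatives. A p above the threshold does not show that the genotypes are alike: *Dnm1l*, the deleted gene, was itself not called (adjusted p = 0.362 from edgeR). The intervals allow changes from 0.397 to 1.59 times the control level across the members.

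**Figure D2:**
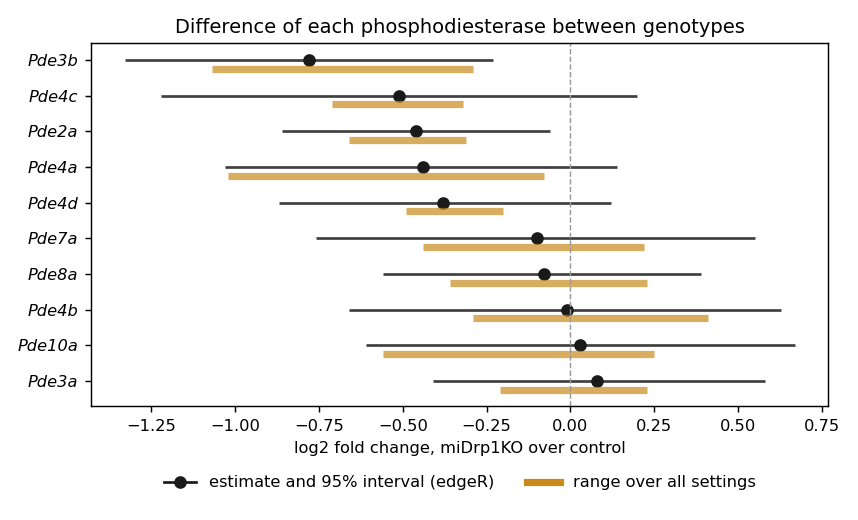
Log2 fold change (miDrp1KO over control) of each member with its 95% interval from edgeR (black), and below it the range of the estimate over the main and all alternative settings (orange). The intervals of *Pde3b* and *Pde2a* lie below 0 before adjustment, and those of the other 8 cross it.

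Summed over the 10 genes, phosphodiesterase transcripts amounted to 65.3, 76.4 and 65.1 CPM per kb in controls B, C and D and to 76.5, 55.0 and 46.1 CPM per kb in miDrp1KO A, E and F. The sum of A was as high as that of the highest control, and those of E and F lay below every control. The means were 68.9 ± 6.46 and 59.2 ± 15.6 CPM per kb (SD, n = 3), so the groups differed by less than the miDrp1KO mice did among themselves. *Pde7a*, *Pde4d* and *Pde4b* together made up 72.7 to 84.3% of the sum in control and 77.3 to 83.1% in miDrp1KO libraries. *Pde7a* held 33.4 ± 6.20% in control and 35.9 ± 4.50% in miDrp1KO muscle, *Pde4d* held 33.1 ± 7.83 and 29.7 ± 3.44%, and *Pde3b* held 3.02 ± 0.492 and 2.04 ± 0.288% (SD, n = 3). These shares depend on the length used: per kb of the longest coding transcript, *Pde7a* held a mean of 21.3% in control and 23.2% in miDrp1KO muscle, *Pde4d* 48.4 and 44.5%, and *Pde3b* 2.15 and 1.49%.

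**Figure D3:**
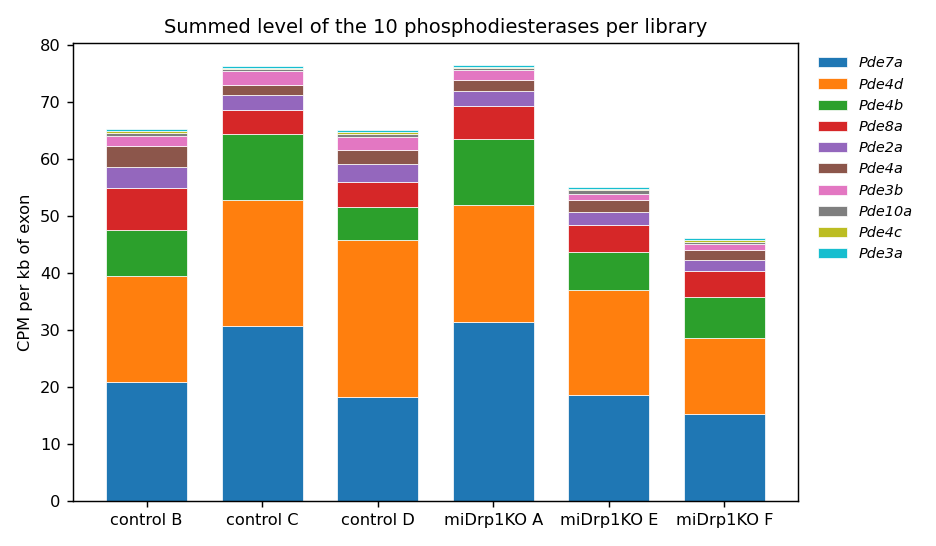
Stacked levels of the 10 phosphodiesterases in each library, in CPM per kb of exon, controls on the left and miDrp1KO libraries on the right. Totals run from 46.1 in miDrp1KO F to 76.5 in miDrp1KO A, and 3 genes make up most of every bar.

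The members did not vary as a block between mice. Among the 45 pairs of members, *Pde4b* and *Pde7a* were the most alike, with a root mean square difference of 0.17 in centred log2 CPM over the 6 libraries, and *Pde3b* and *Pde10a* the least, at 0.80. *Pde4b* and *Pde7a* stood 0.50 above their means in control C, and 0.50 and 0.54 above in miDrp1KO A, and were at or below the mean in the other 4 libraries, so this split ran across both genotypes. Ribosomal RNA took 7.95% of the counts in C and 23.0% in A, and 1.47 to 24.4% in the others; its part in this split was not tested. The 3 genes closest to *Pde7a*, the member with the highest level, were *Slc7a2*, *Prodh* and *Per1*, with root mean square differences of 0.0800, 0.0829 and 0.0986. *Per1*, a clock gene that cAMP and glucocorticoids are known to induce, was at 24.9, 33.2 and 19.2 CPM in controls B, C and D and at 38.6, 18.9 and 16.0 CPM in miDrp1KO A, E and F. From 6 libraries and 9580 candidate genes, these matches too are only a description, and shared high libraries follow from how they were chosen.

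**Figure D4:**
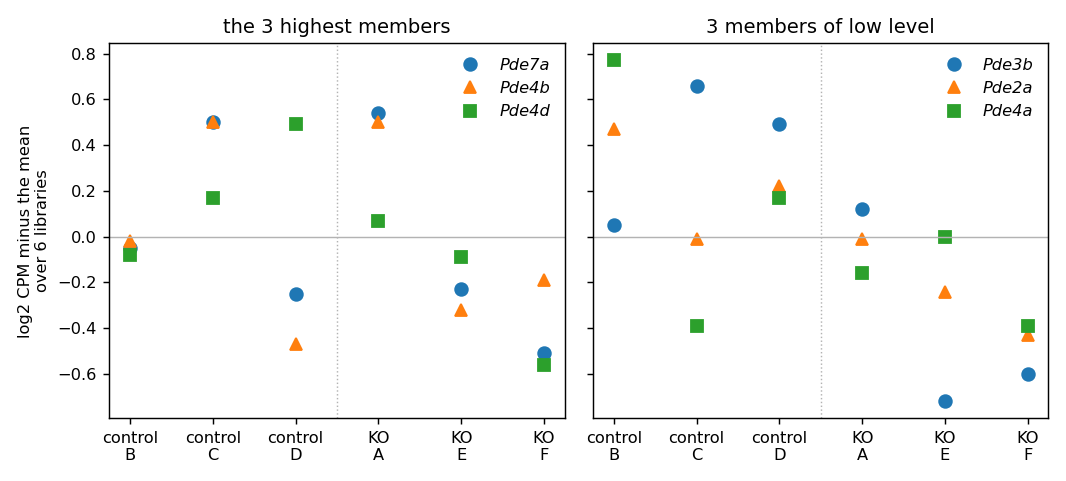
Log2 CPM of 6 members in each library minus the member's mean over the 6 libraries, for the 3 most abundant members on the left and for *Pde3b*, *Pde2a* and *Pde4a* on the right (KO, miDrp1KO). *Pde7a* and *Pde4b* peak in control C and miDrp1KO A, and *Pde3b* is lowest in miDrp1KO E and F.

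Among 14 other phosphodiesterase genes, which act on cGMP or on both nucleotides or were left out of the member list, 11 were tested, 7 with a positive and 4 with a negative log2 fold change, and 0 were called by edgeR or had an unadjusted p under 0.05. The lowest p was that of *Pde7b*, the paralog of *Pde7a*, at 39.8, 33.1 and 44.1 CPM in controls and 31.4, 32.9 and 31.0 CPM in miDrp1KO libraries. Its miDrp1KO values all lay just below the controls, and the log2 difference was −0.30 (edgeR adjusted p = 0.523). *Pde7b* thus had the level per length of *Pde2a*, at 3.13 CPM per kb in control muscle. *Pde1a* (log2 fold change 0.24) and *Pde8b* (−0.27) had the next lowest p, and both overlapped between the groups.

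The steps before and after cAMP were described from 4 further lists, in none of which edgeR called a gene, and their counts at an unadjusted p under 0.05 stand beside 10.9% of all tested genes. Of 22 tested genes for receptors and cAMP production, 4 had an unadjusted p under 0.05 from edgeR, all 4 lower, and the median log2 fold change was −0.12. *Adcy2*, an adenylyl cyclase, was at 44.8, 41.4 and 39.5 CPM in controls B, C and D and at 28.7, 21.6 and 19.3 CPM in miDrp1KO A, E and F, without overlap (log2 fold change −0.85, adjusted p = 0.362 from edgeR). *Gnas*, the stimulatory G protein subunit, had a log2 fold change of −0.56 and *Gnai1*, an inhibitory one, of −0.81, each without overlap. Of 18 PKA and other cAMP effector genes, 1 was higher and 3 lower at an unadjusted p under 0.05, with a median of −0.09. They included the regulatory subunits of PKA *Prkar2b* (log2 fold change −1.09) and *Prkar2a* (−0.51), each without overlap between the groups.

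Of 19 genes for anchors and partners of phosphodiesterases, 1 was higher and 3 lower at an unadjusted p under 0.05 from edgeR, with a median log2 fold change of −0.16. *Pde4dip* encodes myomegalin, which binds PDE4D. It was at 3973, 3359 and 3668 CPM in controls B, C and D and at 2744, 1679 and 868 CPM in miDrp1KO A, E and F. Every miDrp1KO library lay below every control (log2 fold change −1.06, adjusted p = 0.392 from edgeR). F was the lowest, as it was for *Pde4d*, whose groups overlapped. *Ryr1*, the calcium release channel of the sarcoplasmic reticulum, was at 2216 to 2535 CPM in control and 414 to 1475 CPM in miDrp1KO libraries (log2 fold change −1.31, adjusted p = 0.379 from edgeR). The higher gene was *Ryr2* (0.90), at 1.17 to 3.65 CPM. The fibre marker sum was also lowest in F, and its part in the values of *Pde4dip* and *Ryr1* was not tested. Of 19 cAMP and CREB target genes, 1 was higher and 1 lower at an unadjusted p under 0.05, a share near that of all tested genes. These were *Junb*, at 6.63 to 7.58 CPM in control and 12.9 to 24.0 CPM in miDrp1KO libraries (log2 fold change 1.31, adjusted p = 0.308 from edgeR), and *Pck1* (−1.45, edgeR adjusted p = 0.393), an enzyme abundant in fat. *Nr4a2* came next, with a log2 fold change of −0.83 and overlapping groups.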

How the data were processed

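Total RNA of quadriceps muscle was depleted of ribosomal RNA, and stranded libraries were sequenced. Per the study's methods, the authors aligned reads to GRCm38 and counted them per gene with Rsubread 2.4.2. The deposited values are raw counts, whole numbers with no normalization, in 1 file per library. The libraries were sequenced in pools whose membership is not given in the sources used here. Each library came from 1 labelled mouse, and groups follow the genotype label.

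Counts were fitted in R 4.3.3 with edgeR 4.0.16 (filterByExpr, TMM scaling, robust quasi-likelihood test, Benjamini-Hochberg adjustment over 16483 genes, threshold 0.05). CPM use the TMM library sizes. Log2 CPM in comparisons of pattern add 0.1 CPM. Levels per kb use the union of GENCODE vM21 exons (GRCm38), which may differ from the annotation used for counting. Single genes were also compared by exact permutation of the genotype labels (two-sided). Intervals are at 95% and unadjusted. Alternatives were DESeq2 1.42.0 and limma 3.58.1 voom, other scalings and filters, covariates, and leaving out each replicate. The fit was tested on simulated data. No library or column was left out.

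The members, gene lists, markers and rules were chosen with earlier results of these data known. Genes named outside the members were, in each list, the 3 with the lowest p, and the 3 genes closest in pattern to the most abundant member and to the member with the lowest p, among genes with a mean of at least 1 CPM and at least 0.5 of the member's standard deviation. A gene that this rule names is not reported here.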

Additional observations from a re-analysis of the deposited data

How the results depend on the processing

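No member was called in any of the 16 alternatives. The number with an unadjusted p under 0.05 was 2, and 1 with upper quartile scaling; it was 0 without miDrp1KO F, 1 without control B, control D or miDrp1KO E, and 3 without control C. With the slow fibre covariate it was 3. The median log2 fold change of the members was −0.24 and ran from −0.44 without miDrp1KO A to −0.10 without miDrp1KO F. The log2 ratio of the summed level was −0.22 and ran from −0.45 without miDrp1KO A to −0.07 without miDrp1KO F.

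Log2 fold changes of changed sign, none past the threshold, were as follows. For *Pde4b* they were 0.07 with upper quartile scaling, 0.03 with at least 10 counts in every library and 0.02 without *Lars2* and the ribosomal RNA genes. With the slow fibre markers as a covariate they were −0.08 for *Pde3a*, 0.20 for *Pde4b*, 0.14 for *Pde7a* and −0.32 for *Pde10a*, and with the adipocyte markers −0.21, 0.41, 0.22 and −0.56 in the same order. Without 1 replicate, *Pde3a* ran from −0.07 to 0.23, *Pde4b* from −0.29 to 0.26, *Pde7a* from −0.44 to 0.13, *Pde8a* from −0.23 to 0.23 and *Pde10a* from −0.22 to 0.25. The cause was not tested. The slow fibre and adipocyte covariates and the longest transcript length were chosen after the data were seen. Upper quartile scaling moved the median of all genes from 0.02 to 0.11. No paired analysis was possible because the groups share no replicate letter.

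Depth was lowest for *Pde4c*, with 23 to 120 counts a library. For *Pde4a* the log2 fold change was −0.60 (unadjusted p = 0.0289 from edgeR) with the slow fibre covariate and −1.02 (unadjusted p = 0.00484) with the adipocyte covariate, and −0.08 to −0.70 without 1 control. Without 1 replicate, *Pde4d* ran from −0.49 to −0.20 and *Pde4c* from −0.63 to −0.32.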
